A study of Homo sapiens with 60 samples.

Results

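Bojungikgi-tang, known in Chinese as Buzhong Yiqi Tang, is a traditional herbal mixture, and its water extract was given to HepG2 cells at 3 doses. Its data are 3 of the 60 mRNA libraries of the series: 1 library at 500, 1 at 100 and 1 at 20 µg/mL, taken by their treatment labels. With 1 library per dose no difference between its doses could be tested, and its values are given as a description. Beside them stand water extracts of Citri Unshius Pericarpium (mandarin peel), Cimicifugae Rhizoma (the rhizome of Cimicifuga) and Bupleuri Radix (the root of Bupleurum), each with 9 libraries, 3 at each of the same doses. The series also holds water extracts of Aconiti Lateralis Radix Preparata, Yijung-tang and Banhasasim-tang, each with 9 libraries, 3 at each of these doses. They were tested together with the herbs and are used for comparison. All cells were treated for 24 h, and 3 further libraries received vehicle, labelled 0.1% DMSO, whereas the series text names 2% DMSO as vehicle. It also names wortmannin as positive control, which was not analysed here. HepG2 is an established line of human hepatocellular carcinoma cells that keeps many hepatocyte functions. It is 1 line, so the libraries hold no variation between people. Whether replicates came from separate cultures is not stated, and p-values then measure only the spread between these libraries, which could be technical in part.

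The 3 herbs are ingredients of the mixture, with astragalus, ginseng, licorice and others, but the labels give neither the recipe nor the amount of any herb in it. A given dose of the mixture therefore holds an unknown and smaller dose of each herb. In liver cells, compounds of plant extracts are met by a few well-known sensors. The aryl hydrocarbon receptor (AhR) binds flat aromatic molecules and switches on the oxidase gene CYP1A1. The factor NRF2 is freed by electrophiles and switches on genes of glutathione, thioredoxin and quinone metabolism. Metallothioneins are small zinc-binding proteins whose genes follow free zinc through the factor MTF1, and hepcidin (HAMP), the hormone that limits iron uptake, follows bone morphogenetic protein (BMP) signals through SMAD proteins.

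The deposited table gave 26858184, 24410768 and 27051490 expected read counts for the 500, 100 and 20 µg/mL libraries of Bojungikgi-tang, within the range of 17598646 to 30451640 over all 60. Levels below are CPM (counts scaled to the library's total), normalised over all 60 libraries together, and a ratio is the difference of log2 CPM with a prior count of 2. The 15 hepatocyte and HepG2 markers summed to 45700, 45800 and 47600 CPM at 500, 100 and 20 µg/mL, against 47200 to 48500 with vehicle. The 9 endothelial markers summed to at most 5.39 CPM in these libraries, and KDR, TEK, CLEC4G and EMCN were at 0. The 11 fibroblast and stellate markers summed to 63.3 to 64.1 CPM, with COL1A2, COL3A1, DCN and LUM at 0. The macrophage and blood list summed to 1130 to 1480 CPM, with CD163, MARCO, CD3E, MS4A1 and TYROBP at 0, and nearly all of it was lysozyme (LYZ). The 8 cholangiocyte markers summed to 995, 1010 and 1240 CPM at 20, 100 and 500 µg/mL, against 1010 to 1030 with vehicle, with CFTR and AQP1 at 0. Of these SPP1, which encodes osteopontin, had 492, 497 and 705 CPM (ratio 0.52), and the part of this list in the results was not tested. The ratio of 500 over 20 was higher in genes with a higher GC content of the longest transcript (Pearson r = 0.311 over 10648 genes, across genes and with no test), whereas r was between -0.0363 and 0.0148 in the 3 herbs. For the mixture's 100 over 20 r was 0.482, and for 500 over 20 in Yijung-tang it was 0.194. Its part in the results was not tested beyond the values with that trend removed, which are given below.

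Few genes differed by much between the doses of Bojungikgi-tang. Of 10671 genes with a mean of at least 5 CPM over its 3 libraries, 12 were at least 1.5-fold higher at 500 than at 20 µg/mL (0.112%) and 20 were at least 1.5-fold lower (0.187%). The median log2 ratio over all 10671 genes was 0.02. At the edge of the fold, OTUB2 (log2 0.60) and S100P (-0.60) lay just inside, and ENSG00000261602 (0.58) and SLC51B (-0.57) just outside. The step from 20 to 100 µg/mL put 15 genes past 1.5-fold and the step from 100 to 500 put 29.

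Single libraries of the herbs, compared in the same way by their replicate number, gave a yardstick. A 500 library against a 20 library passed 1.5-fold at 40 to 42 genes in Citri Unshius Pericarpium, at 862 to 917 in Cimicifugae Rhizoma and at 241 to 272 in Bupleuri Radix. Among 57 pairs of replicates of 1 group, which differ in no label but the number, 11 to 102 genes passed 1.5-fold, with a median of 27. The 32 genes of Bojungikgi-tang thus lie within the range of replicate pairs in number. They are not all alike, however. A gene is called in a herb where edgeR gave an adjusted p under 0.05 between 500 and 20 µg/mL. Of 16093 genes tested, 0.727%, 19.5% and 9.9% were called higher and 0.92%, 19.7% and 8.89% lower in Citri Unshius Pericarpium, Cimicifugae Rhizoma and Bupleuri Radix. The 15 of them that were called in the same direction in at least 1 of the 3 herbs had ratios of 2.56 to 13.6 times the SD that replicates of that gene show in a difference of 2 libraries. Of the 14 called in no herb, 4 exceeded 2 such SDs. A gene with a wide spread between replicates is also harder to call in the herbs, so both values rest in part on the same spread.

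**Figure D1:**
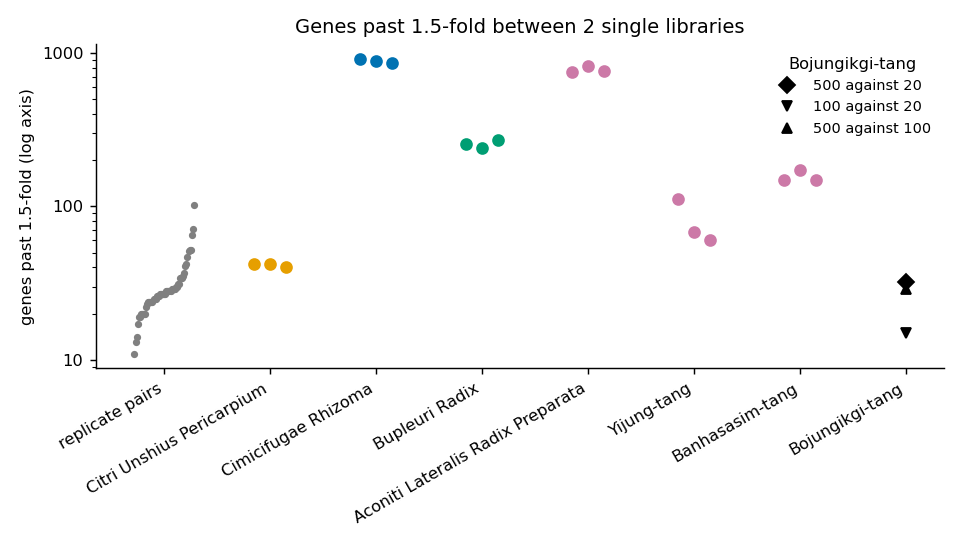
Number of genes past 1.5-fold (log axis) between 2 single libraries: 57 pairs of replicates of 1 group (grey), 500 against 20 µg/mL with the same replicate number in 6 extracts (3 points each), and the 3 dose steps of Bojungikgi-tang (black). Bojungikgi-tang at 500 against 20, with 32 genes, sits among the replicate pairs and below the 40 to 42 of Citri Unshius Pericarpium.

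CYP1A1 (ENSG00000140465, chr15:74719542-74725610, minus strand, GRCh38) had the highest ratio. This gene encodes a cytochrome P450 that oxidises aromatic compounds and is the best-known AhR target. It stood at 16.5, 23.8 and 90.5 CPM at 20, 100 and 500 µg/mL of Bojungikgi-tang (459, 597 and 2423 reads), and at 13.0, 11.0 and 13.9 CPM in the vehicle libraries. The 20 library was above all 3 vehicle libraries, whose titles open with another code, and that small gap was not tested. The 500 library was 5.47-fold above the 20 library. Citri Unshius Pericarpium gave 11.3, 11.9 and 11.0 CPM at 20 and 96.9, 96.9 and 105 at 500. Cimicifugae Rhizoma gave 20.0, 17.8 and 21 at 20 and 551, 565 and 562 at 500, and Bupleuri Radix 12.5, 11.5 and 10.9 at 20 and 35.3, 33.0 and 33.3 at 500. Dose groups did not overlap in any of the 3. The log2 changes were 3.13 ± 0.11 (SE, adjusted p = 3.53e-26) for Citri Unshius Pericarpium, 4.85 ± 0.10 (2.9e-36) for Cimicifugae Rhizoma and 1.54 ± 0.12 (5.76e-15) for Bupleuri Radix, with 3 libraries per dose and edgeR's quasi-likelihood test with Benjamini-Hochberg adjustment over 16093 genes, as for every adjusted p below. The mixture's 2.45 lay above that of Bupleuri Radix and below those of the other herbs, and its 500 library stood near the 3 of Citri Unshius Pericarpium.

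The sequence before the CYP1A1 start is shown because it holds the motif that the AhR and its partner bind. In the 250 bases before the RefSeq start (GRCh38.p14, chr15:74725529-74725778, minus strand, 5′ to 3′), the core GCGTG, searched on both strands, occurs 1 time and is in capitals, 57 bases before the start.
CYP1A1: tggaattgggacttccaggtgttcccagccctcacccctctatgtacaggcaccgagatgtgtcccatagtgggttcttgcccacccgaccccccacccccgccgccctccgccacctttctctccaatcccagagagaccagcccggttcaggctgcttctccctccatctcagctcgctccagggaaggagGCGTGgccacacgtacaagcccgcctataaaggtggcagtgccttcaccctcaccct
The same core occurs in 32.2% of 35093 promoter windows of this length, so a match by itself marks nothing out. The window before NQO1, the AhR-list member with the next ratio among those with a mean of 5 CPM or more, holds no GCGTG, which says only that these letters are not in that window.

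Of the other AhR targets, few were measured at this depth. The list holds 10 genes, and 4 had a mean of 5 CPM or more in Bojungikgi-tang, among them CYP1A1, NQO1 (log2 ratio 0.42) and TIPARP (-0.06). TIPARP, a feedback inhibitor of the AhR, stood at 23.0, 22.4 and 22.1 CPM at 20, 100 and 500 µg/mL, a flat course beside that of CYP1A1. In the herbs 7 members were tested, and 3 were called higher in Citri Unshius Pericarpium, 5 in Cimicifugae Rhizoma and 2 in Bupleuri Radix. Of all genes tested, 0.727%, 19.5% and 9.9% were called higher in that order. Of the 7, 1 was called lower in Cimicifugae Rhizoma and 1 in Bupleuri Radix, where 19.7% and 8.89% of all genes were.

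The NRF2 list stood slightly higher at 500 µg/mL in nearly all of its members. Of its 28 genes 26 were measured, 24 had a ratio above 0 and 1 passed 1.5-fold, with a median of 0.23 (0.19 with the GC trend removed), against 6104 of 10671 genes above 0 and a median of 0.02 overall. In the herbs 27 were tested: 17 were called higher in Citri Unshius Pericarpium (median log2 change 0.25), 19 higher and 2 lower in Cimicifugae Rhizoma (0.39) and 20 higher and 2 lower in Bupleuri Radix (0.25). Of all genes tested, 0.727%, 19.5% and 9.9% were called higher in these herbs, and 0.92%, 19.7% and 8.89% lower. The median over the list in the mixture, 0.23, was close to those of Citri Unshius Pericarpium and Bupleuri Radix.

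AKR1B10, an aldo-keto reductase that clears reactive aldehydes, led this list. It stood at 85.6 and 84.9 CPM at 20 and 100 µg/mL of Bojungikgi-tang and at 146 at 500, so that the whole difference lay in the upper step. The vehicle libraries gave 99.1, 103 and 99.2 CPM, between those levels. The 500 libraries gave 135, 139 and 133 CPM with Citri Unshius Pericarpium, 256, 242 and 248 with Cimicifugae Rhizoma and 185, 191 and 195 with Bupleuri Radix, all above their 20 libraries of 79.5 to 85.2. The log2 ratio was 0.77 in the mixture and the changes were 0.70 ± 0.048 (adjusted p = 4.55e-15), 1.61 ± 0.048 (6.47e-31) and 1.20 ± 0.047 (3.03e-25) in that order of herbs.

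NQO1, the quinone reductase that both the AhR and NRF2 lists hold, had the same course: 595, 591 and 794 CPM at 20, 100 and 500 µg/mL. The herbs gave 764 ± 35.1 (SD, n = 3), 1070 ± 31.3 and 768 ± 15.0 CPM at 500 for Citri Unshius Pericarpium, Cimicifugae Rhizoma and Bupleuri Radix, and the vehicle 667 ± 11.3. Log2 changes were 0.42 ± 0.048 (adjusted p = 3.5e-08), 0.94 ± 0.048 (9.11e-22) and 0.42 ± 0.048 (1.38e-09), and the mixture's ratio was 0.42. OSGIN1, an oxidative stress response gene that overlaps another gene on its strand, was higher at each step with 42.5, 49.5 and 61.2 CPM, a ratio of 0.53, and was called higher in all 3 herbs at 0.43, 0.65 and 0.37. The ketosteroid reductase AKR1C1, whose reads may be shared with its near-identical family members, had 1030, 989 and 1390 CPM and a ratio of 0.42. In the 250 bases before the OSGIN1 start, the antioxidant response element core TGACNNNGC was not found, and 10.9% of all windows hold it.

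Metallothioneins were the clearest group on the lower side. All 5 metallothionein genes with enough reads passed 1.5-fold, and each of them was called lower in each of the 3 herbs. In Bojungikgi-tang MT1G had 149, 129 and 62.5 CPM at 20, 100 and 500 µg/mL, MT1X 74.3, 63.4 and 32.2, and MT1F 60.8, 55.5 and 27.3. MT1E had 261, 241 and 130 CPM, and MT2A, the most abundant, 501, 432 and 259. Each of the 5 was slightly lower at 100 than at 20 and lower by more at 500. Their log2 ratios were -1.26 (MT1G), -1.20 (MT1X), -1.15 (MT1F), -1.0 (MT1E) and -0.95 (MT2A), or 2.39- to 1.93-fold lower. These genes lie in 1 cluster on chromosome 16 and resemble each other closely, so that the counting divided shared reads between them and they are not 5 independent measurements.

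The comparison with vehicle was less even for these genes. The vehicle libraries had 83.9, 85.0 and 110 CPM of MT1G, below the 149 of the 20 µg/mL library and above the 62.5 of the 500 library. The herbs' 20 µg/mL libraries had 119 ± 5.22 (Citri Unshius Pericarpium), 90.0 ± 3.19 (Cimicifugae Rhizoma) and 105 ± 14.5 (Bupleuri Radix; SD, n = 3) CPM of MT1G, all below the mixture's. All titles carry the same batch letter, B. The codes that open them begin with 5 for Citri Unshius Pericarpium and Cimicifugae Rhizoma, 6 for Bupleuri Radix, 8 for Bojungikgi-tang and B1 for vehicle, and no label says what that first figure stands for. What it stands for and the extract cannot be told apart where levels are compared between codes, whereas each comparison of 500 with 20 stays within 1 extract. The 500 libraries had 74.2 ± 14.6, 7.22 ± 0.987 and 15.0 ± 2.40 CPM in the same order of herbs.

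In the herbs the same 5 genes fell by unequal amounts. The log2 changes of MT1G were -0.69 ± 0.12 (adjusted p = 0.000138), -3.62 ± 0.16 (3.41e-24) and -2.79 ± 0.14 (1.44e-21) in Citri Unshius Pericarpium, Cimicifugae Rhizoma and Bupleuri Radix, so that the mixture's -1.26 lay between the first and the other 2. The same order held for MT1X, MT1F and MT1E. MT2A departed from it in Cimicifugae Rhizoma, where it had 294 ± 34.5 CPM at 20, 165 ± 10.7 at 100 and 219 ± 52.3 at 500 (SD, n = 3), and a change of -0.41 ± 0.12 (adjusted p = 0.00635) that was lost without the third 500 library (-0.24, adjusted p = 0.138). Over the list, which also holds the zinc exporter SLC30A1 (ratio -0.28) and MTF1 (0.01), the median of the 7 measured genes was -1.0 in the mixture (-1.05 with the GC trend removed), and 7, 8 and 8 of 9 tested genes were called lower in the 3 herbs, against 0.92%, 19.7% and 8.89% of all genes.

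The stretch before the MT1X start is shown for the short elements that MTF1 is known to bind. In the 250 bases before the RefSeq start (GRCh38.p14, chr16:56682220-56682469, plus strand, 5′ to 3′), the cores TGCGCNC and TGCACNC on either strand, in capitals, occur 4 times in all, the nearest 53 bases before the start. Their matches do not overlap each other.
MT1X: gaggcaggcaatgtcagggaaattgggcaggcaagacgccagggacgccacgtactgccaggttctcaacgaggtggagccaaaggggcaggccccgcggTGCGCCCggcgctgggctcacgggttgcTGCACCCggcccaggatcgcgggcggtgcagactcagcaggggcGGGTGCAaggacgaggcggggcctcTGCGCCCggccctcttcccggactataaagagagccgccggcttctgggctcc
Windows with TGCGCNC make up 16.8% and windows with TGCACNC 9.86% of the 35093. Of the 10 listed genes 5 had a window, and 3 and 4 of those held the first and the second form.

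**Figure D2:**
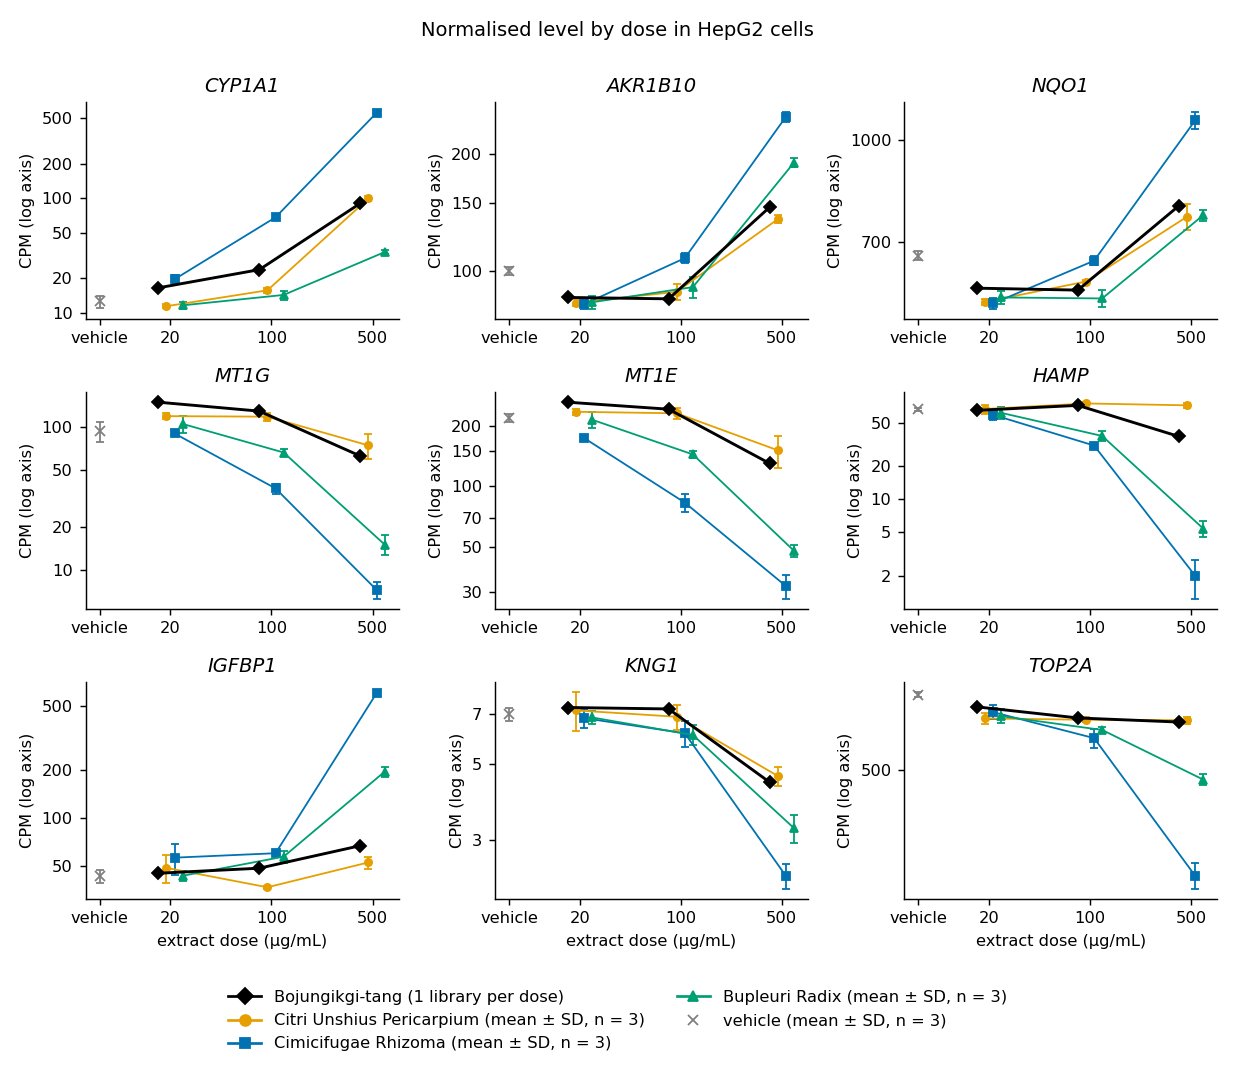
CPM (log axis) of 9 genes with vehicle and at 20, 100 and 500 µg/mL. Black diamonds are the single libraries of Bojungikgi-tang, coloured symbols and bars are the mean and SD of 3 libraries of each herb, and grey crosses those of vehicle. At 500 the mixture stands near Citri Unshius Pericarpium for CYP1A1, AKR1B10, MT1G and KNG1, and between that herb and Bupleuri Radix for HAMP.

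Hepcidin and its BMP-SMAD companions separated the herbs from each other, and the mixture took a middle place. HAMP stood at 64.9 and 72 CPM at 20 and 100 µg/mL of Bojungikgi-tang and at 37.5 at 500, below the vehicle libraries (68.5, 66.0 and 63.9). With Citri Unshius Pericarpium it was at 59.8, 67.6 and 72.7 CPM at 20 and at 75.1, 68.2 and 73.0 at 500, groups that overlapped, with a change of 0.10 ± 0.11 (adjusted p = 0.815). Cimicifugae Rhizoma took it from 59.1 ± 6.44 to 2.02 ± 0.783 and Bupleuri Radix from 61.6 ± 7.62 to 5.43 ± 0.868 CPM (SD, n = 3), changes of -4.85 ± 0.19 (adjusted p = 1.94e-26) and -3.49 ± 0.15 (4.53e-24). At 100 µg/mL these 2 herbs gave 31.0 ± 1.38 and 37.9 ± 3.95 CPM, levels like the 37.5 of the mixture at 500.

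The companions were lower too, by less. SMAD7, an inhibitor that BMP and TGF-beta signals induce, stood at 23.6, 24.6 and 18.1 CPM at 20, 100 and 500 µg/mL, a ratio of -0.38. SMAD9 had -0.36 and SMAD6, another inhibitor, -0.34. Of the 9 measured members of the list 8 were below 0 with a median of -0.28 (-0.35 with the GC trend removed), and HAMP was the 1 past 1.5-fold. Of 11 tested members 9 were called lower in Cimicifugae Rhizoma (median -1.51, against 19.7% of all genes) and 9 in Bupleuri Radix (-1.0, against 8.89%). In Citri Unshius Pericarpium edgeR called 0 of them, the median was 0.02, 2 had an unadjusted p under 0.05, and DESeq2 called 0. The SMAD7 changes were 0.05 (adjusted p = 0.862), -1.35 (9.49e-22) and -1.0 (3.83e-18).

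IGFBP1, a secreted binder of insulin-like growth factors that insulin represses, showed the same split in the other direction. It had 44.7, 48.1 and 66.6 CPM at 20, 100 and 500 µg/mL, a ratio of 0.57 just under the fold, against 42.8 ± 4.2 (SD, n = 3) with vehicle. Its list of insulin-repressed and gluconeogenesis genes did not share this in the mixture. Of 10 measured members 5 were above and 5 below 0, with a median of 0.04, and IGFBP1 had the highest ratio. The 500 libraries of Cimicifugae Rhizoma had 606, 594 and 611 CPM and those of Bupleuri Radix 188, 184 and 211, far above their 20 libraries, with changes of 3.45 ± 0.098 (adjusted p = 1.5e-31) and 2.18 ± 0.097 (3.81e-23). Citri Unshius Pericarpium overlapped between 20 (39.8 to 58.9) and 500 (48.2 to 57.2), with 0.11 ± 0.10 (0.793).

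A further 7 genes past 1.5-fold shared their direction with at least 1 herb; 2 of them, TJP3 and STBD1, lie outside the naming rule and are given after their values were seen. The growth factor gene AREG had 5.71, 6.42 and 9.0 CPM, a ratio of 0.65, and changes of 0.58, 1.57 and 0.99 in Citri Unshius Pericarpium, Cimicifugae Rhizoma and Bupleuri Radix (adjusted p = 0.00274, 1.85e-17 and 3.02e-10), of which the first was lost without the third 20 library of that herb (0.47, adjusted p = 0.0641). OTUB2, a deubiquitinase, had 4.89, 5.23 and 7.43 CPM, and changes of 1.75 (4.76e-22) and 0.63 (6.27e-07) in the latter 2 herbs, while that of 0.18 in the first was not called (0.578). KNG1, the kininogen secreted by hepatocytes, had 7.29, 7.22 and 4.41 CPM, a ratio of -0.72 beside called changes of -0.64, -1.52 and -1.07. The glutamate transporter gene SLC1A2 had 37.0, 32.7 and 23.3 CPM at 20, 100 and 500 µg/mL, a ratio of -0.66, with -0.46 (9.7e-08) in Cimicifugae Rhizoma and -0.80 (1.07e-13) in Bupleuri Radix. The tight junction gene TJP3 had 9.27, 9.34 and 6.01 CPM, with -1.57 (5.1e-13) and -0.90 (8.79e-08) in the same 2 herbs. The calcium-binding protein gene S100P had 44.6, 39.2 and 29.3 CPM, and 1 herb, Bupleuri Radix, called it (-0.81, 6.46e-07). STBD1, a glycogen-binding protein gene, had 5.82, 11.7 and 10.2 CPM and was called in Cimicifugae Rhizoma alone of the 3 (0.97, 8.05e-09), and it overlaps a read-through transcript with which it shares reads.

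**Figure D3:**
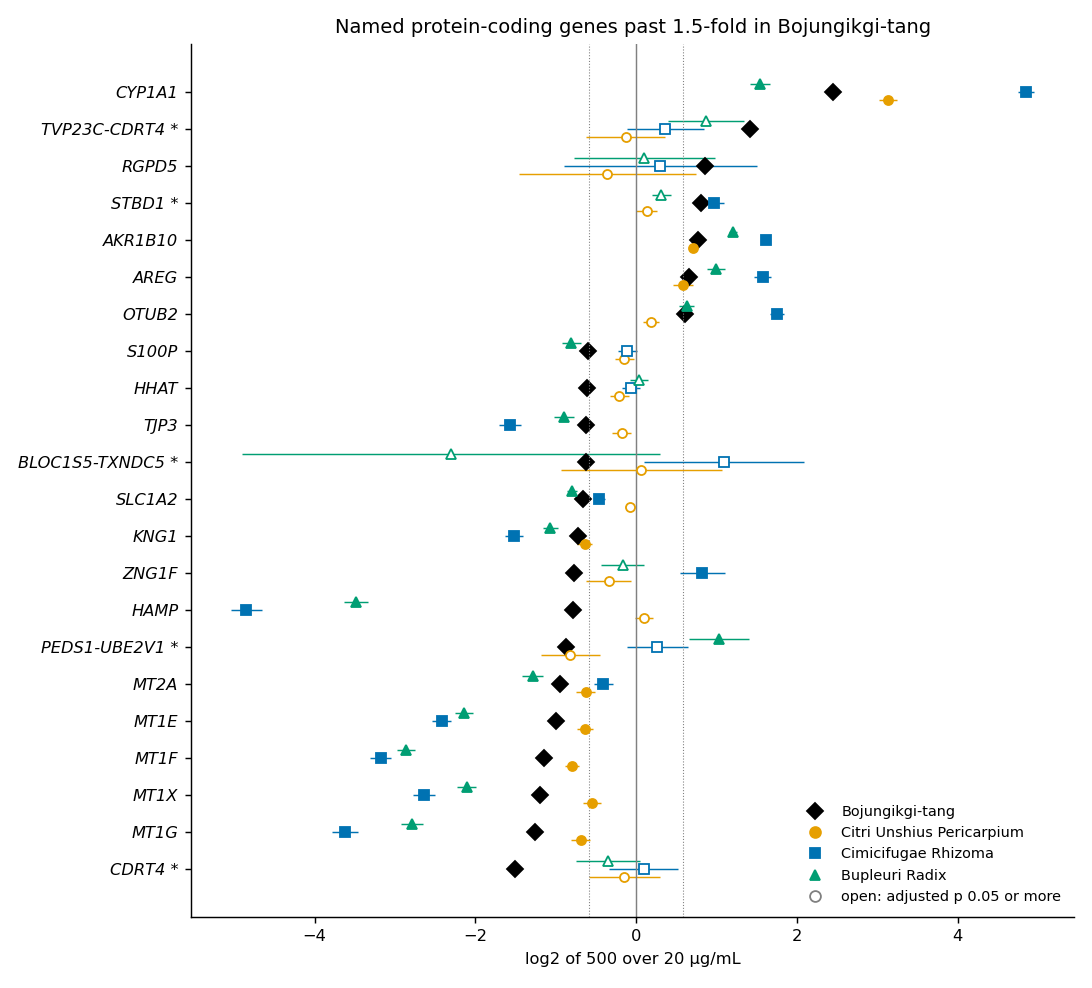
Log2 of 500 over 20 µg/mL for the named protein-coding genes past 1.5-fold in Bojungikgi-tang (black, 1 library per dose) and in the 3 herbs (mean change with SE, 3 libraries per dose; open symbols have an adjusted p of 0.05 or more). Dotted lines mark 1.5-fold and stars mark genes whose body overlaps another gene on the same strand. The metallothioneins lie left of 0 in all 4 extracts, and HAMP does so in 3 of them.

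The rest of the 32 were less certain. In all, 3 of the 12 higher genes were called higher in all 3 herbs (CYP1A1, AKR1B10 and AREG), and 6 of the 20 lower genes were called lower in all 3 (the 5 metallothioneins and KNG1). In no herb were 6 of the higher and 8 of the lower called, and 1 and 2 were called in the opposite direction in a herb. Of these 14, 5 are named protein-coding genes and 5 overlap another gene on the same strand. TVP23C-CDRT4, a read-through transcript, went from 4.78 to 12.9 CPM (ratio 1.42) while CDRT4, whose exons it shares, went from 13.0 to 4.52 (-1.51), and across the 3 vehicle libraries the pair also varied, from 9.55 to 13.1 and from 4.69 to 7.10 CPM. The counting divides the reads of shared exons between them, so no difference of the locus can be read from these values. BLOC1S5-TXNDC5 is another read-through transcript and RGPD5 belongs to a family of near-identical copies. HHAT, which encodes an acyltransferase of the hedgehog pathway, was the 1 named protein-coding gene of the 14 with no such overlap or family: it had 5.96, 6.26 and 3.88 CPM (166, 157 and 104 reads), a ratio of -0.61, and herb changes of -0.21, -0.07 and 0.03.

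Genes called in all 3 herbs leaned the same way in the mixture, mostly by less than the fold. The 3 herbs called 117, 3140 and 1594 genes higher and 148, 3176 and 1430 lower in Citri Unshius Pericarpium, Cimicifugae Rhizoma and Bupleuri Radix. Among the 10671 genes, 59 were called higher in all 3 herbs, and all 59 had a ratio above 0 in Bojungikgi-tang, with a median of 0.274 (0.230 with the GC trend removed). Another 46 were called lower in all 3, and 44 of them were below 0, with a median of -0.207 (-0.225). Over all 10671 genes 57.2% were above 0. No library is shared between the mixture's ratio and the herbs' changes. By the rule for such genes, AQP3, an aquaglyceroporin, was also named. It had 4.56, 4.43 and 6.05 CPM, a ratio of 0.40, and changes of 0.56, 2.62 and 1.00. Only its level at the highest dose lay above the required mean of 5 CPM. AQP3 thus entered through the library in which it was highest, which makes it a weak example of the lean.

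Genes called in both Cimicifugae Rhizoma and Bupleuri Radix, whatever Citri Unshius Pericarpium did, had medians nearer 0. The 1166 called higher had a median of 0.097, with 79.6% above 0, and the 1125 called lower a median of -0.041, with 66.8% below 0. Genes called higher in Citri Unshius Pericarpium, 111 of which were measured in the mixture, had a median of 0.226 and 109 lay above 0, while the 141 called lower had a median of -0.116. The 119 genes that Cimicifugae Rhizoma raised by 2-fold or more had a median of 0.218 in the mixture, and the 47 that it lowered as much had -0.178. For calls of single extracts, the lean was not particular to the herbs. Genes called higher in Yijung-tang, Banhasasim-tang and Aconiti Lateralis Radix Preparata had medians of 0.139, 0.077 and 0.056 in the mixture. Those called lower had -0.001, -0.052 and -0.008 in that order. All higher calls of Cimicifugae Rhizoma and of Bupleuri Radix had medians of 0.061 and 0.093, and all their lower calls -0.011 and -0.041. Leaving out 1 library of Citri Unshius Pericarpium at a time left 33 to 46 genes called higher and 25 to 36 called lower in all 3 herbs, with medians of 0.287 to 0.297 and of -0.255 to -0.218. These libraries were left out after the data had been seen. The count of 59 moved by over 1.5 times without its second or the third 500 library (39 and 33), or its first or second 20 library (35 and 38), and that of 46 without the second or the third 500 library (30 and 25) or the first or second 20 library (27 in each case). For Citri Unshius Pericarpium alone, the 117 higher calls became 69 and 70 without the second or the third 500 library and 69 and 66 without the first or second 20 library, and the 148 lower calls became 97 without the second 20 library.

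**Figure D4:**
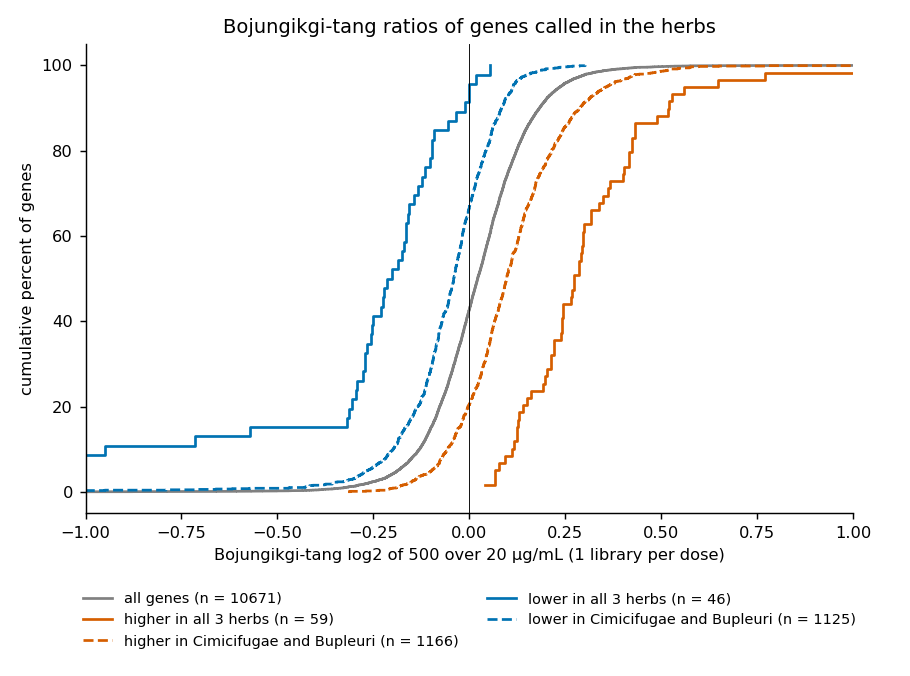
Cumulative percent of genes by the log2 ratio of 500 over 20 µg/mL in Bojungikgi-tang (x axis cut at -1 and 1), for all 10671 genes (grey) and for genes called higher (orange) or lower (blue) in all 3 herbs (solid) or in Cimicifugae Rhizoma and Bupleuri Radix (dashed). The solid orange curve starts right of 0, and the solid blue one reaches 95.7% at 0.

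Some gene groups changed in herbs while their ratios in the mixture lay close to 0. Over all genes tested, Citri Unshius Pericarpium called 0.727% higher and 0.92% lower, Cimicifugae Rhizoma 19.5% and 19.7%, and Bupleuri Radix 9.9% and 8.89%. All 26 mitosis genes were called lower in Cimicifugae Rhizoma (median -0.80) and 23 in Bupleuri Radix (-0.27), while in Bojungikgi-tang the 26 ratios ran from -0.08 to 0.19. TOP2A, the topoisomerase that untangles chromosomes before division, had 629, 604 and 595 CPM at 20, 100 and 500 µg/mL of the mixture, against 339 ± 16.1 and 482 ± 9.64 CPM (SD, n = 3) at 500 of Cimicifugae Rhizoma and Bupleuri Radix. For DNA replication, 29 and 20 of 30 genes were called lower in these herbs, and the 29 measured ratios in the mixture ran from -0.09 to 0.11. Immediate early and ERK feedback genes were called higher in Cimicifugae Rhizoma (19 of 24, median 0.76) and Bupleuri Radix (12 of 24, 0.33), and in the mixture 19 measured members ran from -0.09 to 0.23. Citri Unshius Pericarpium called none of these higher and 3 lower (median -0.12), with 10 lower at an unadjusted p under 0.05 and 4 called lower by DESeq2. In Citri Unshius Pericarpium, edgeR called 0 of the mitosis genes, 1 had an unadjusted p under 0.05 and DESeq2 called 0, with a median of 0.02.

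Lipid synthesis genes leaned lower in the mixture without passing the fold. Of 24 measured genes of cholesterol synthesis and uptake 21 were below 0, with a median of -0.11 and a range of -0.32 to 0.13. HMGCS1, which makes the mevalonate precursor, had 425, 414 and 341 CPM at 20, 100 and 500 µg/mL, and changes of -0.27, -0.32 and -0.68 in Citri Unshius Pericarpium, Cimicifugae Rhizoma and Bupleuri Radix (adjusted p = 0.00219, 6.61e-06 and 1.54e-13). Bupleuri Radix called 22 of 25 members lower (median -0.44), Cimicifugae Rhizoma called 15 lower and 2 higher, and Citri Unshius Pericarpium called 5 lower with edgeR and 8 with DESeq2. With edgeR, 8.89%, 19.7% and 0.92% of all genes were called lower in that order, and Cimicifugae Rhizoma called 19.5% higher. The 15 genes of fatty acid synthesis and desaturation had a median of -0.10, with 12 below 0, and Bupleuri Radix called 13 of them lower (-0.35). GPAM, the first enzyme of triglyceride assembly, had 225, 215 and 186 CPM in the mixture.

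**Figure D5:**
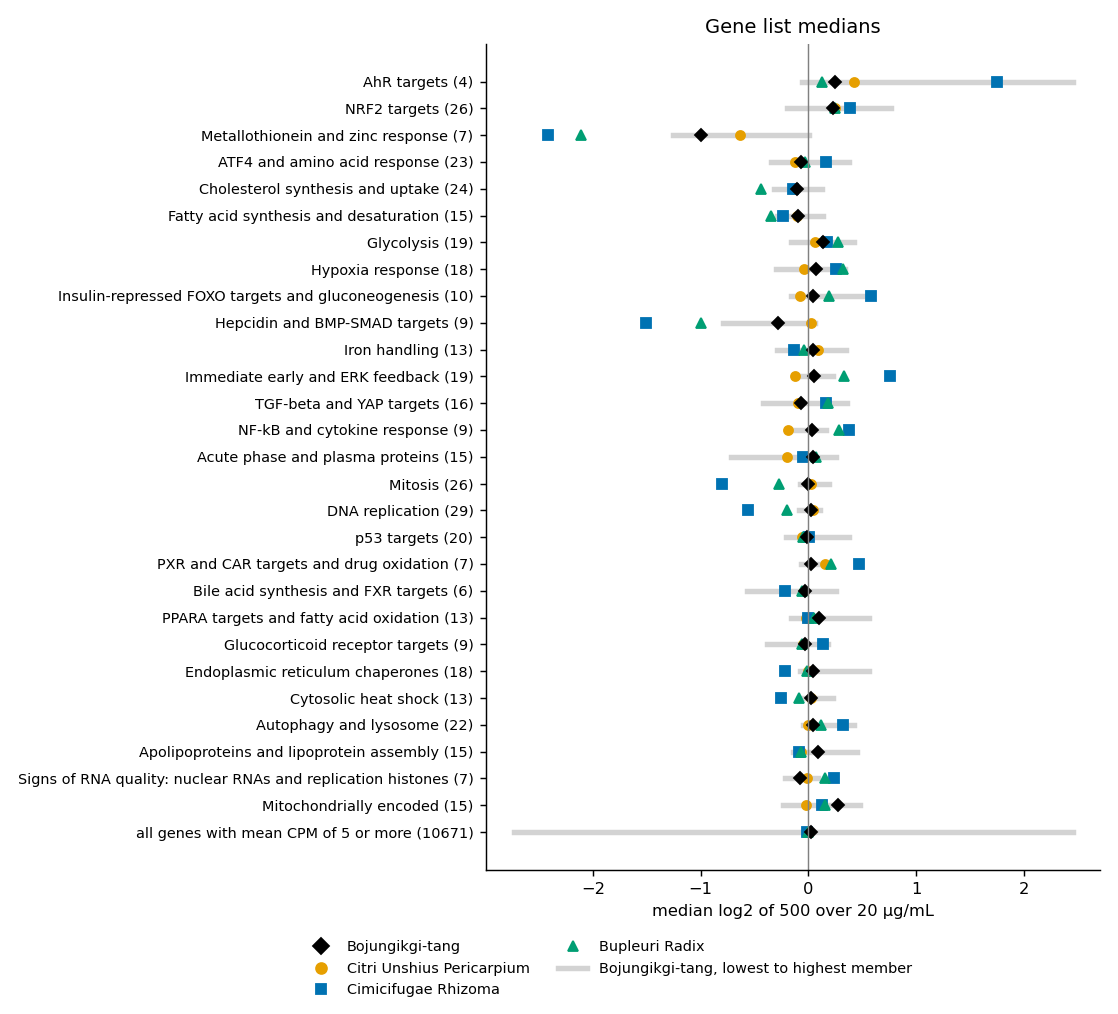
Median log2 of 500 over 20 µg/mL of each gene list in Bojungikgi-tang (black, over the measured members counted in brackets) and in the 3 herbs (over their tested members), with the span of members in the mixture in grey. Metallothioneins, at -1.0, lie farthest from 0 in the mixture, and the mitosis list shows Cimicifugae Rhizoma at -0.80 and Bupleuri Radix at -0.27 beside a mixture near 0.

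Across all 10671 genes the mixture's ratios correlated weakly with the herbs' changes. Pearson's r was 0.347 with Citri Unshius Pericarpium, 0.323 with Cimicifugae Rhizoma and 0.389 with Bupleuri Radix, and Spearman's rho 0.312, 0.238 and 0.293. Without CYP1A1 and the metallothioneins r was 0.300, 0.287 and 0.357. Single pairs of herb libraries gave r between 0.148 and 0.358, 0.267 and 0.340, and 0.309 and 0.396, so that the 3 herbs cannot be ranked by it. These are descriptions across genes, which are not independent replicates, and the points share the cell line, the mixture's 2 libraries and the base composition of each gene.

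Extracts other than the herbs shared calls as well. Of the 32 genes past 1.5-fold, 9 were called in the same direction in Citri Unshius Pericarpium, 14 in Cimicifugae Rhizoma and 14 in Bupleuri Radix, and 2 in the second and 1 in the third were called in the opposite direction. Aconiti Lateralis Radix Preparata, a processed aconite root that is no ingredient, called 13 of them in the same direction and 4 in the opposite one, with 19.2% of all genes called higher and 18.1% lower. Among other mixtures, Banhasasim-tang called 13 (8.59% and 6.52%) and Yijung-tang 7 (1.65% and 2.12%), each with 1 in the opposite direction. The labels do not give the recipes of these mixtures, which may hold herbs that are also in Bojungikgi-tang. Aconiti Lateralis Radix Preparata, Banhasasim-tang and Yijung-tang called CYP1A1 higher (log2 changes of 2.91, 1.82 and 1.33) and AKR1B10 too (1.74, 1.11 and 1.03). They called MT1G, MT1X, MT1F and MT1E lower, and all but the first (-0.08) did so for MT2A. HAMP was called lower in all but Yijung-tang (0.30), and AREG was called lower there (-0.63). Of 27 tested NRF2 genes, 23, 16 and 19 were called higher and 1, 2 and 0 lower in that order. The correlations of these extracts with Bojungikgi-tang were 0.256, 0.319 and 0.254 in that order, and the differences between extracts were not tested.

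The dose course put most of the difference in the upper step. For the 59 genes called higher in all 3 herbs, the mixture's median was 0.044 from 20 to 100 µg/mL and 0.214 from 100 to 500. The 46 called lower had -0.040 and -0.159. With the GC trend removed the values were 0.050 and 0.189 for the first set and -0.018 and -0.194 for the second. In the 100 against 20 step alone, the named protein-coding genes farthest from 0 were the read-through transcript BLOC1S5-TXNDC5 (1.38) and CDRT4 (-1.14). The 100 library lay between the other 2 for 8 of the 12 higher genes and 15 of the 20 lower ones. These genes were picked for a wide gap between the 500 and 20 libraries, so this count does not show a dose course.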

How the data were processed

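RNA libraries of 60 HepG2 samples were made from total RNA with a directional mRNA kit, per the labels' protocols. The authors deposited expected counts per gene from RSEM 1.3.3 after STAR 2.7.3a on GRCh38, per the submitters' processing notes. RSEM divides reads shared by similar or overlapping genes, and 24.5% of the nonzero values were not whole. The annotation release is not given in the sources used here, and names and coordinates come from GENCODE 29, which matched 57055 of 60675 genes. The other 207 columns of the deposited table were not used.

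Counts were rounded. For the 6 extracts with replicates, 500 was compared with 20 µg/mL by edgeR 4.0.16 (TMM scaling, filterByExpr, quasi-likelihood test) in 1 fit over 57 libraries in 19 groups, with Benjamini-Hochberg adjustment over 16093 genes and a threshold of 0.05. For Bojungikgi-tang, with 1 library per dose, no test was made: ratios of TMM-scaled CPM with a prior count of 2 were taken for genes with a mean of at least 5 CPM, and "past the fold" means 1.5-fold. Depth was 17598646 to 30451640 counts per library. The fit was tested on simulated data. Alternatives are given in the closing section. Genes and lists were chosen with earlier results of these data known. Genes were named by rule: the largest ratios past 1.5-fold with the 100 library between the others, up to 4 members per list with the largest ratios, the largest genes called in no herb or in the opposite direction, genes called in all 3 herbs with the largest smallest change, and the largest 100 against 20 ratios. Exceptions are marked. Promoter sequences come from RefSeq (GRCh38.p14), and the genes AKR1B10 and MT1G are named only. Values of some list members are not reported here.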

Additional observations from a re-analysis of the deposited data

Results flagged for a closer look

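In 3 genes past 1.5-fold in Bojungikgi-tang, a herb was called in the opposite direction. All of its pairs of libraries with the same replicate number lay on that side. The difference between mixture and herb was not tested, since the mixture has 1 library per dose. PEDS1-UBE2V1, a read-through transcript that overlaps PEDS1 and UBE2V1, had 11.5, 6.82 and 6.20 CPM at 20, 100 and 500 µg/mL, a log2 ratio of -0.88, against 1.03 in Bupleuri Radix (edgeR, adjusted p = 0.0458). That call was lost when any of 5 of the 6 Bupleuri Radix libraries at 500 or 20 was left out, all but the first at 500, with an adjusted p of 0.0579 to 0.248. It was also lost with DESeq2 (adjusted p = 0.0541) and with the replicate block (0.0503).

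ZNG1F, a member of a family of near-identical copies, had 12, 6.90 and 6.95 CPM, a ratio of -0.78, against 0.82 in Cimicifugae Rhizoma (adjusted p = 0.0154). Its Cimicifugae Rhizoma libraries gave 18.6, 7.38 and 9.81 CPM at 500 and 7.20, 5.69 and 7.72 at 20, groups that overlapped. Without the first 500 library the change was 0.34 (adjusted p = 0.415), and without the second 20 library 0.70 (0.0733).

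ENSG00000231864, an antisense gene named after its values were seen, had 8.51, 11.8 and 14.1 CPM at 20, 100 and 500 µg/mL, a ratio of 0.72, against -0.63 in Cimicifugae Rhizoma (adjusted p = 0.0049). Its Cimicifugae Rhizoma libraries gave 5.19, 8.66 and 8.29 CPM at 500 and 10.9, 12.4 and 11.2 at 20. Without the first 500 library the change was -0.42 (adjusted p = 0.0988).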

How the results depend on the processing

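The number of Bojungikgi-tang genes past the fold depended on the filter and the fold. Higher and lower genes numbered 119 and 144 at a mean CPM of 1 or more, 2 and 8 at 20 or more, 1689 and 1902 with no filter, and 3 and 7 at a fold of 2. At a ratio of 5 to 4 between the doses, chosen after seeing the data, they numbered 186 and 117. With the GC trend removed, 13 genes were at least 1.5-fold higher and 25 lower, against 12 and 20 without that step. Of the genes past 2-fold, 5 were called in the same direction in Citri Unshius Pericarpium, in Cimicifugae Rhizoma, in Bupleuri Radix, in Aconiti Lateralis Radix Preparata and in Banhasasim-tang. These were CYP1A1, MT1G, MT1X, MT1F and MT1E, and Yijung-tang called them in the same direction too, so this count does not separate the extracts. Past the ratio of 5 to 4 the numbers were 31, 151, 114 and 133 in the first 4, 105 in Banhasasim-tang and 26 in Yijung-tang. Called in the opposite direction were 0, 17, 4, 24, 5 and 13 in that order. Over all 16093 genes tested, the shares called higher and lower were 0.727% and 0.92%, 19.5% and 19.7%, and 9.9% and 8.89% in the 3 herbs. They were 19.2% and 18.1%, 8.59% and 6.52%, and 1.65% and 2.12% in the other extracts. Among genes of 20 CPM or more, the correlation across genes was 0.473, 0.397, 0.465 and 0.330 in the 3 herbs, in the same order, and Aconiti Lateralis Radix Preparata. Over all 10671 genes, with 100 against 20 µg/mL of the extract, it was 0.163 for Citri Unshius Pericarpium, 0.409 for Cimicifugae Rhizoma and 0.349 for Bupleuri Radix. For Aconiti Lateralis Radix Preparata, Yijung-tang and Banhasasim-tang it was 0.245, 0.34 and 0.148. Leaving out 1 library gave 66 to 85 higher and 97 to 115 lower calls in Citri Unshius Pericarpium. The main fit left out the replicate number. Same-numbered libraries of the herbs correlated at -0.01 to 0.109 in their deviations, and the highest value with another number was -0.0451 to 0.077. These low values do not show whether the numbers pair the samples. A fit with the replicate block gave 135 higher and 166 lower calls in Citri Unshius Pericarpium, 3188 and 3240 in Cimicifugae Rhizoma and 1641 and 1493 in Bupleuri Radix. Each of these counts was above that of the main fit. The cause of these differences was not tested. Depth limits ratios near the filter: HHAT, near 5 CPM, rested on 104 to 166 reads per library.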

Other observations

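Mitochondrially encoded genes stood slightly higher at 500 µg/mL of Bojungikgi-tang. Their summed level was 84600, 83200 and 98000 CPM at 20, 100 and 500 µg/mL, against 73900 to 90100 in the vehicle libraries. Of 15 genes 14 had a log2 ratio of 500 over 20 above 0, with a median of 0.27, and none passed 1.5-fold. Citri Unshius Pericarpium, Cimicifugae Rhizoma and Bupleuri Radix called 1, 2 and 2 of them higher, where 0.727%, 19.5% and 9.9% of all genes were called higher, so the counts in the latter herbs show nothing particular to these genes.

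Glycolysis genes leaned the same way: 16 of 19 measured genes had a ratio above 0, with a median of 0.14, or 0.08 with the GC trend removed. Bupleuri Radix called 15 of 21 tested genes higher and none lower, and Cimicifugae Rhizoma 12 higher and 2 lower. Of all genes tested, these herbs called 9.9% and 19.5% higher in that order. Lysozyme (LYZ), which HepG2 cells express, had 1170, 1080 and 1430 CPM at 20, 100 and 500 µg/mL of Bojungikgi-tang. The autophagy and lysosome list, of which Cimicifugae Rhizoma called 19 of 25 higher, had a median of 0.04 over 22 genes in the mixture.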
